A study of Mus musculus with 12 samples.

Results

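Pregnant mouse uterus holds blood vessels, lymphatic vessels and the mural cells that wrap them, and 35 genes that mark or regulate those cells were followed here across 12 uterine RNA libraries. All 35 symbols, chosen by name as genes of blood endothelium, lymphatic endothelium and pericytes, were found among the 24964 genes of the deposited count table, and all 35 passed the filter on low counts, with 61 counts in the lowest library of the least counted member. Tissue was taken at 13.5 days post coitum from 3 groups with 4 libraries each. Control mice carried the Myh11Cre driver alone. The PGR-A OE group carried Myh11Cre with 1 LSLPGRA allele (Myh11Cre; LSLPGRA/+), and the PGR-B OE group carried Myh11Cre with 1 LSLPGRB allele (Myh11Cre; LSLPGRB/+), so that isoform A or isoform B of the progesterone receptor was overexpressed where the driver acts. The driver was therefore present in all 12 libraries. Myh11 encodes the myosin heavy chain of smooth muscle and is used by the muscle of vessel walls as well as by the myometrium, so the transgenes are not limited to the uterine muscle layer by this promoter. The labels name the tissue only as uterine, give no strain or age, and do not tell if each library is a different animal, and p-values measure only the spread between these libraries.

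Endothelial cells line all vessels and are held together by junction proteins such as VE-cadherin. They grow and branch under VEGF acting on the receptors KDR, FLT1 and FLT4, are stabilised by angiopoietin 1 acting on TIE2, and take arterial or tip cell roles through DLL4 and the Notch receptors. Mural cells, the pericytes and vascular smooth muscle cells, are recruited through the PDGF receptor PDGFRB, and lymphatic endothelium is specified by the transcription factor PROX1. In pregnancy the uterine vessels widen and remodel as blood flow to the implantation sites rises.

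Total counts ran from 31872534 to 33078483 per library. Pgr, the overexpressed gene, had higher levels in both transgenic groups, with 121 ± 16.5 CPM (counts per 1000000 of the scaled library total) for control, 199.7 ± 38.5 for PGR-A OE and 223 ± 26.5 for PGR-B OE (SD, n = 4, adjusted p = 0.0416 and 0.0196 by edgeR). Its counts do not separate transgene from endogenous transcripts. Smooth muscle markers were abundant in every library, with a summed level of 12310 to 16210 CPM over 9 genes in control. Their sum was higher in PGR-A OE, at 16630 to 22900 CPM, with 0 of 9 called by edgeR (DESeq2 called Des, Myh11 and Synm). At an unadjusted p under 0.05, 4 of 9 were higher there, beside 7.56% of all genes. All 9 had a positive log2 change in PGR-A OE, with a median of 0.30. In PGR-B OE the sum was at 11970 to 15810 CPM, with 3 of 9 positive, a median of -0.079 and 0 of 9 at that p. The fibroblast markers (8 genes) summed to 24660 to 25590 CPM in control and their sum was higher in both transgenic groups, at 28820 to 36040 CPM with PGR-A OE and 28900 to 35960 CPM with PGR-B OE, neither range overlapping control. Of these 8 genes, 6 had a positive and 2 a negative log2 change in either group. At that p, 4 in PGR-A OE and 3 in PGR-B OE were higher, beside 7.56% and 4.69% of all genes. Pdgfra, Dcn and Lum had log2 changes of -0.10, -0.020 and 0.016 in PGR-A OE. In PGR-B OE these were -0.060, 0.031 and -0.14. By edgeR, Col15a1 was called in PGR-A OE (adjusted p = 0.0392, kept in 4 of 12 fits with a library omitted, adjusted p 0.0316 to 0.146, and lost in a fit of the 8 libraries compared, adjusted p = 0.075) and 0 genes in PGR-B OE (Col15a1 adjusted p = 0.128, and 0.0162 without PGR-A OE replicate 4). DESeq2 called Col3a1, Col1a1 and Col15a1 in both groups and Pi16 in PGR-A OE. Decidual markers differed widely between libraries: Prl8a2, a decidual prolactin, ran from 5.02 CPM in PGR-A OE replicate 4 to 5054 CPM in control replicate 4. The globin genes Hbb-bs, Hbb-bt, Hba-a1 and Hba-a2 were listed at 0 in all libraries, so blood content could not be read from them. Tissue RNA does not tell fewer cells of a type from less RNA per cell.

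Every member was detected in every library. Levels of different genes are compared here only as CPM per kilobase of the deposited gene length. Plvap, which encodes the diaphragm protein of fenestrated capillaries and venules, had the highest level of the 35 members in control, at 100.2 ± 6.99 CPM per kb (SD, n = 4). It was followed by the pan-endothelial adhesion gene Pecam1 at 54.1 ± 4.03, by Eng, the TGF-beta family co-receptor endoglin, at 45.8 ± 2.32, by Lyve1, a hyaluronan receptor of lymphatic endothelium and some macrophages, at 44.9 ± 8.58, by the secreted endothelial factor Egfl7 at 43.7 ± 4.31 and by Cdh5, which encodes VE-cadherin, at 36.7 ± 4.92 CPM per kb. The VEGF receptors Flt4, Kdr and Flt1 were at 11.5 ± 1.33, 10.95 ± 1.69 and 4.93 ± 0.285 CPM per kb. At the other end stood Tal1 (1.38 ± 0.0822), a transcription factor shared by blood and endothelial precursors, Prox1 (1.32 ± 0.331), and Angpt1, the activating ligand of TIE2, with the lowest level (0.609 ± 0.139 CPM per kb). Its partner ligand Angpt2 was at 2.84 ± 1.53 and the receptor gene Tek at 5.50 ± 0.352 CPM per kb. Most steps in this order were smaller than the spread between libraries: for 27 of 34 neighbouring pairs the control ranges overlapped. The separated pairs were Plvap over Pecam1, Pecam1 over Eng, Cdh5 over Emcn, Tie1 over Mmrn2, Notch3 over Tek, Vcam1 over Tal1 and Prox1 over Angpt1. The median coefficient of variation of a member was 10.4% in control, 9.48% in PGR-A OE and 11.4% in PGR-B OE. Angpt2 varied most, with 9.09, 6.39, 6.85 and 18.1 CPM in control replicates 1 to 4, a coefficient of variation of 53.9%. Pecam1 in PGR-B OE varied least, at 1.76%.

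**Figure D1:**
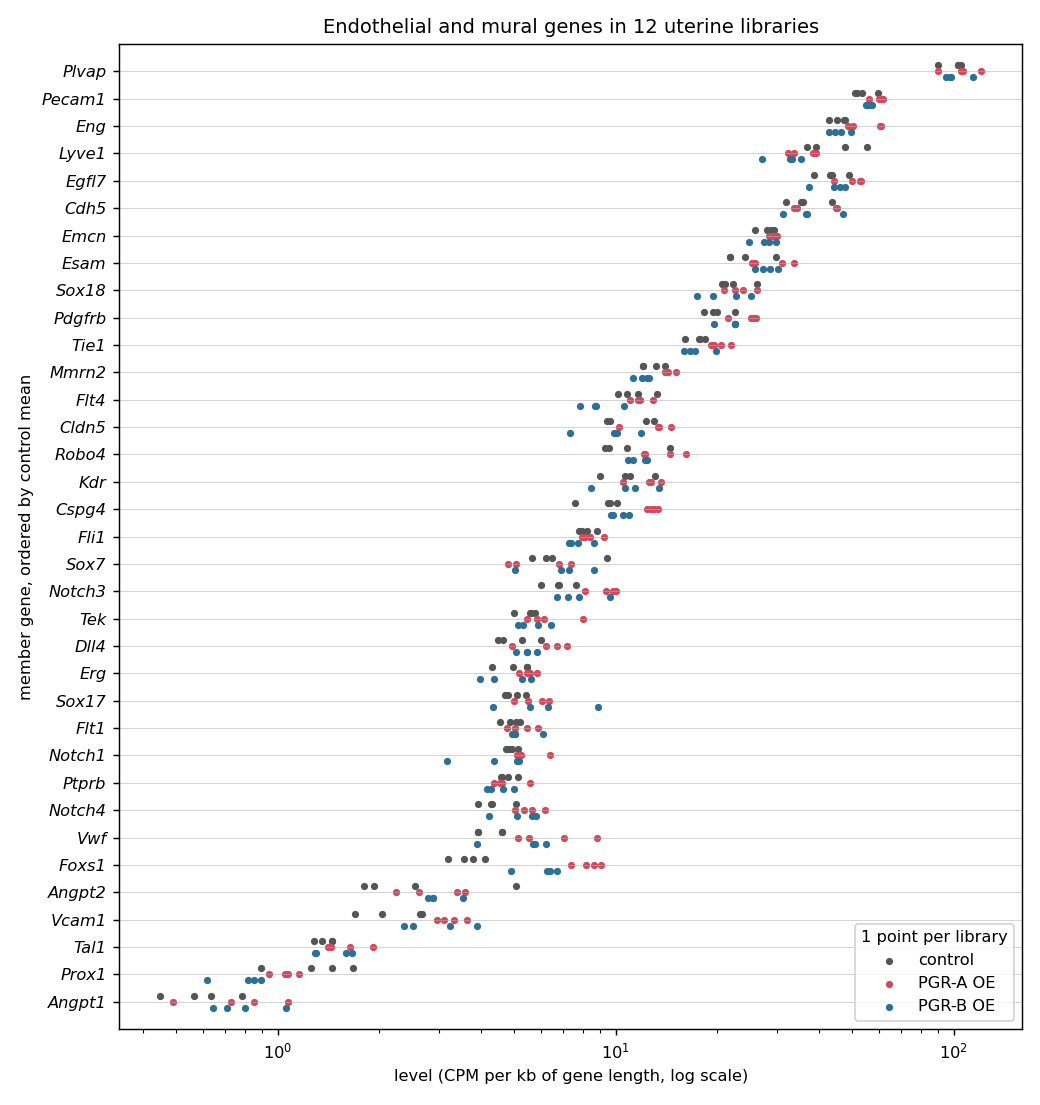
Level of each of the 35 members as CPM per kb of gene length on a log axis, with 1 point per library (grey control, red PGR-A OE, blue PGR-B OE) and genes ordered by the control mean. Plvap stands alone at the top and Angpt1 at the bottom, the groups overlap for most genes, and Foxs1 is the only member whose 3 groups do not overlap.

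Few members passed the test over all genes. With isoform A overexpressed, 2 of 35 members rose and 0 fell by edgeR's quasi-likelihood test (adjusted by Benjamini-Hochberg over 15561 genes), beside 0.655% of all genes called in that comparison, 0.482% higher and 0.174% lower. With isoform B, 1 of 35 rose and 0 fell, beside 0.308% of all genes, 0.283% higher and 0.0257% lower. All of these calls were mural genes: Cspg4 and Foxs1 in PGR-A OE, and Foxs1 in PGR-B OE. DESeq2 called 5 members higher in PGR-A OE (3.64% of all genes) and 1 higher and 1 lower in PGR-B OE (1.43%). Limma voom called 2 members in PGR-A OE (0.591% of all genes) and 0 in PGR-B OE (0.238%).

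In PGR-A OE, 31 of 35 member differences were positive, with a median log2 change of 0.19, where 50.1% of all genes were positive. At an unadjusted p under 0.05 there were 13 members higher and 1 lower, where 7.56% of all genes were higher and 7.87% lower. Groups did not overlap for 7 members, all higher in PGR-A OE (Foxs1, Cspg4, Notch3, Vwf, Eng, Tie1 and Vcam1), where 5.01% of all genes were higher and 5.57% lower without overlap. In PGR-B OE, 23 of 35 were positive, with a median of 0.05 and 3 members on either side at that p, beside 4.69% of all genes higher and 4.59% lower. Foxs1 was higher and Lyve1 lower without overlap, beside 3.07% and 2.6% of all genes. The values of both comparisons rest on the same 4 control libraries. By library, the median member difference from the control mean ran from 0.0755 to 0.279 (log2) in PGR-A OE, from -0.0947 to 0.156 in PGR-B OE and from -0.0585 to 0.0555 in control. The control libraries set that mean, so their values lie around 0 by construction, unlike those of the other groups.

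**Figure D2:**
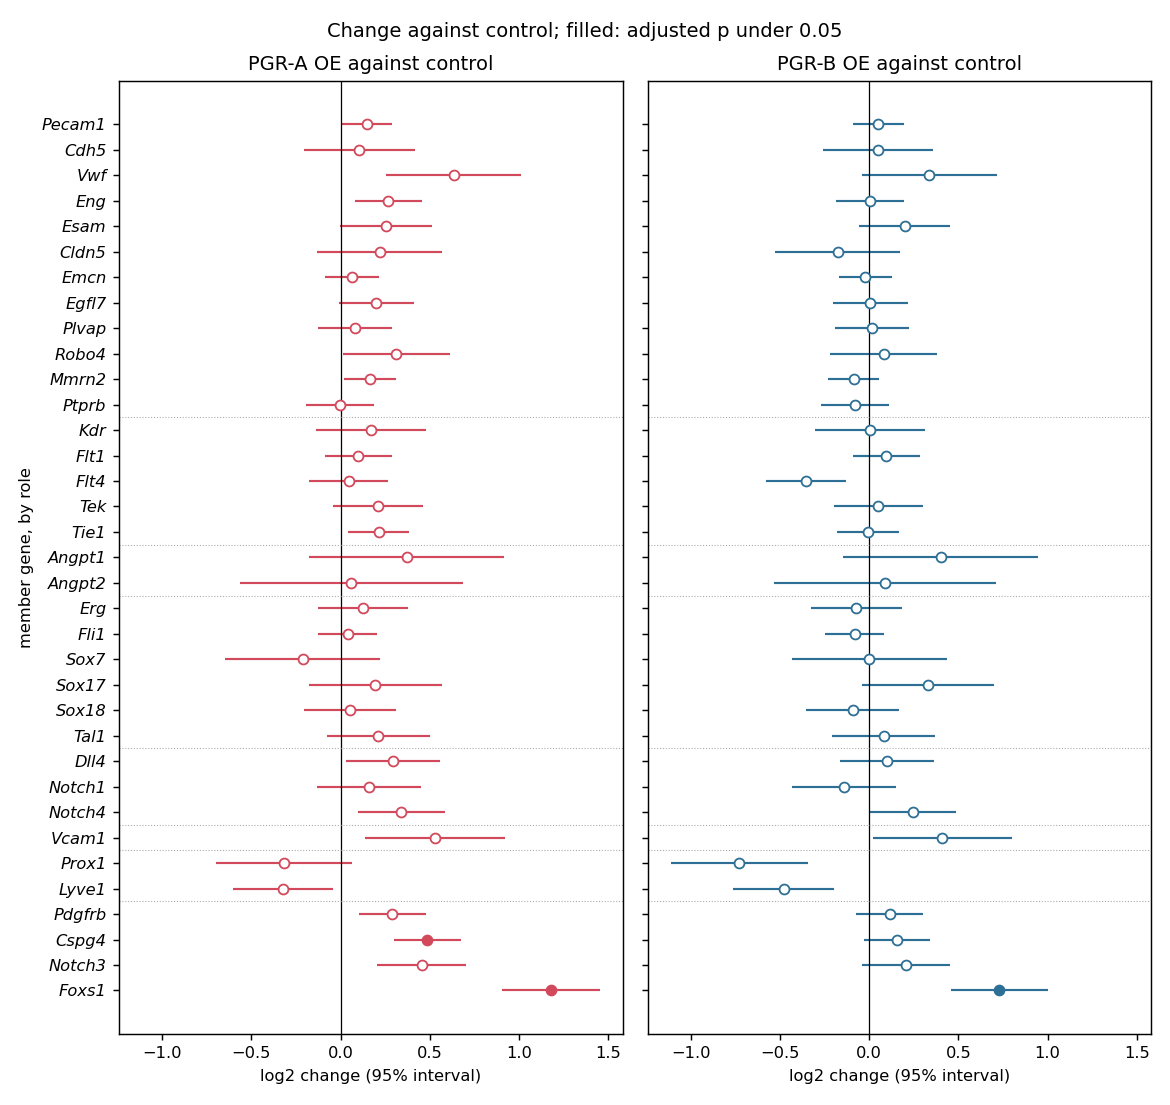
Log2 change of each member against control (points) with its 95% interval (lines) in PGR-A OE on the left and PGR-B OE on the right, grouped by role from pan-endothelial genes at the top to mural genes at the bottom, with filled points for adjusted p under 0.05. The mural genes Foxs1 and Cspg4 are filled on the left and Foxs1 on the right, and the lymphatic genes Prox1 and Lyve1 lie left of 0 in both panels.

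Foxs1, which encodes a forkhead transcription factor of pericytes (chromosome 2, 152931898 to 152933208, a gene with no exon shared with another gene in the GENCODE annotation of GRCm38), showed the largest difference of any member. It was at 4.19, 5.37, 4.67 and 4.97 CPM in control replicates 1 to 4, at 11.3, 10.7, 11.9 and 9.66 CPM in PGR-A OE and at 8.23, 6.41, 8.41 and 8.81 CPM in PGR-B OE. The 3 groups did not overlap, with PGR-A OE highest and PGR-B OE between. Foxs1 rose 2.27-fold in PGR-A OE (log2 change 1.18, SE 0.13, adjusted p = 0.00122) and 1.66-fold in PGR-B OE (log2 change 0.73, SE 0.13, adjusted p = 0.0332) by edgeR. An exact two-sided permutation test of its log2 CPM gave p = 0.0286 in either comparison, the smallest that 4 against 4 libraries allow. Any gene whose groups do not overlap gets this value, so it adds nothing to the lack of overlap. In PGR-A OE, Foxs1 passed in each of the 12 fits with a library omitted (adjusted p 0.000843 to 0.00731). The call in PGR-B OE was kept in 3 of 12 such fits (adjusted p 0.013 to 0.124), without PGR-A OE replicate 3, PGR-A OE replicate 4 or PGR-B OE replicate 2, and was lost in limma voom (adjusted p = 0.0517) and in a fit of the 8 libraries compared (adjusted p = 0.0812), although its log2 change stayed between 0.67 and 0.82 when libraries were left out.

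Cspg4 (chromosome 9, 56865033 to 56899870), which encodes the NG2 proteoglycan on the surface of pericytes and vascular smooth muscle, rose in PGR-A OE. Control libraries held 60.9, 77.3, 81.3 and 76.5 CPM and PGR-A OE libraries 108, 100.02, 104 and 103 CPM, so that all 4 PGR-A OE libraries lay above all controls and close together. The rise was 1.40-fold (log2 change 0.49, SE 0.085, adjusted p = 0.0251, edgeR). PGR-B OE libraries held 84.7, 77.9, 78.9 and 88.3 CPM, overlapping the controls (log2 change 0.16, SE 0.085, adjusted p = 0.614). Without 1 library the call in PGR-A OE was kept in 8 of 12 fits. It was lost without control replicate 2 (adjusted p = 0.074) and without PGR-A OE replicate 1, 2 or 3 (adjusted p = 0.0849, 0.0573 and 0.0515). It was also lost in the fit of the 8 libraries compared (adjusted p = 0.0584) and without control replicate 4 and PGR-A OE replicate 4 together (adjusted p = 0.0567).

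The other mural members lay higher in PGR-A OE without passing. Notch3 (chromosome 17, 32120820 to 32166852), the Notch receptor of arterial smooth muscle and pericytes, was at 54.1, 47.8, 53.6 and 60.6 CPM in control, 79.5, 74.2, 64.4 and 78.2 in PGR-A OE and 76.4, 57.5, 53.3 and 62.1 in PGR-B OE. PGR-A OE did not overlap the controls (log2 change 0.46, SE 0.11, adjusted p = 0.103), while PGR-B OE did (log2 change 0.21, SE 0.11, adjusted p = 0.617). The largest overlap of a Notch3 exon with an exon of the gene model Gm17276 is 333 bases. Strand use in counting is unknown here, so reads there cannot be told apart. Pdgfrb (chromosome 18, 61045150 to 61085061), the receptor that recruits mural cells and is also made by fibroblasts, was at 105, 108, 123 and 98.9 CPM in control, 141, 138, 116 and 136 in PGR-A OE and 122, 106, 122 and 122 in PGR-B OE. Control and PGR-A OE overlapped in 1 library of either group (log2 change 0.29, SE 0.086, adjusted p = 0.153). The change in PGR-B OE was 0.12 (95% interval -0.071 to 0.30, adjusted p = 0.74). DESeq2 called Notch3 (adjusted p = 0.0131) and, at the threshold, Pdgfrb (adjusted p = 0.05 as rounded) higher in PGR-A OE. Smooth muscle markers moved with the mural genes in PGR-A OE, where their summed level did not overlap control. They did not in PGR-B OE, where the sum overlapped. The summed fibroblast level was higher in both groups, though 2 of 8 fibroblast genes had a negative log2 change in either. The part of either marker set in the mural differences was not tested.

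**Figure D3:**
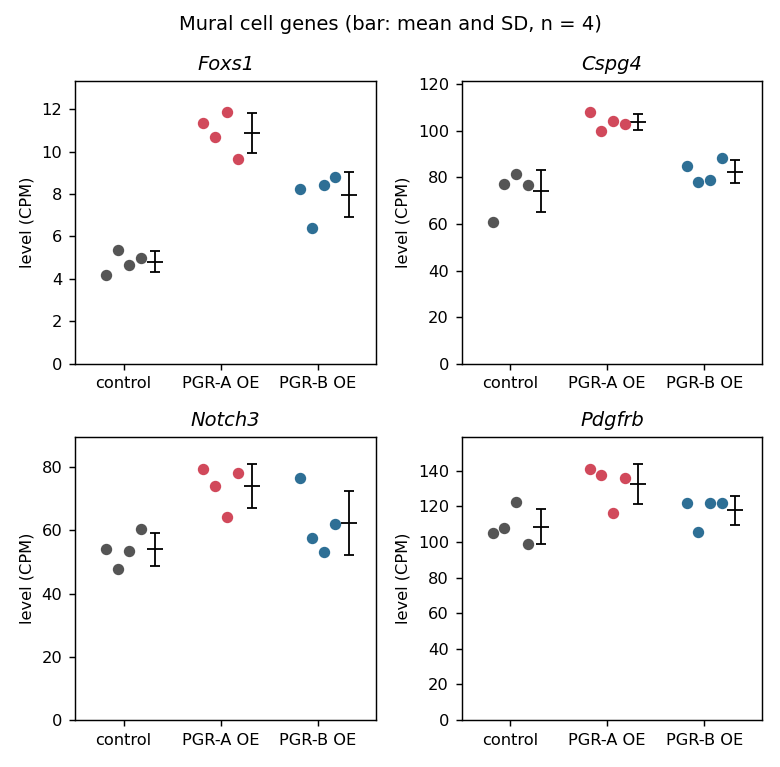
Level in CPM of the mural genes Foxs1, Cspg4, Notch3 and Pdgfrb in each library, with 1 point per library, and the mean with its SD (n = 4) as a bar beside the points of each group. Foxs1 runs from 4.19 to 5.37 CPM in control, and from 9.66 to 11.9 CPM in PGR-A OE, and all PGR-A OE points lie above all control points for Foxs1, Cspg4 and Notch3.

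The bases before the start of Cspg4 and Notch3 are shown because these mural genes lay above control together in PGR-A OE. RefSeq promoter entries (GRCm38.p6) were matched for 18 of 35 members, Foxs1 not among them. Each sequence is the 250 bases before the start that RefSeq annotates, 5′ to 3′ on the gene's strand, and capitals mark matches to any of 4 motifs searched on both strands: the half-site of the progesterone receptor (TGTTCT), the core of the Notch partner RBPJ (TGGGAA), an ETS core (CCGGAA) and the CArG box of serum response factor. Tie1, an endothelial receptor gene, is given for comparison as a member with a match. RefSeq's start differs from the end of the GENCODE gene for these genes: the last bases of the Cspg4 window and most of the Tie1 window lie inside the GENCODE gene, and the Notch3 window lies wholly before it.
Cspg4 (chr9:56864854-56865103, plus strand): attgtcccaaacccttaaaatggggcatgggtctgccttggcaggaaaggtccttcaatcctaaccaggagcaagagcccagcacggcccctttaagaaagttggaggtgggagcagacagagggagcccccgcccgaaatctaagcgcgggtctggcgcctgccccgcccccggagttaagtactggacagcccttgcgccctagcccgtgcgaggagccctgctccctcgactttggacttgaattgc
Notch3 (chr17:32166891-32167140, minus strand): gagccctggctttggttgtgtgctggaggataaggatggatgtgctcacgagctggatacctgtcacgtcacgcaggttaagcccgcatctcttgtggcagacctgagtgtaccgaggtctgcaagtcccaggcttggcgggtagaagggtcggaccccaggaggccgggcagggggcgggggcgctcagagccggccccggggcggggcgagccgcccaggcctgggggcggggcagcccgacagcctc
Tie1 (chr4:118489850-118490099, minus strand): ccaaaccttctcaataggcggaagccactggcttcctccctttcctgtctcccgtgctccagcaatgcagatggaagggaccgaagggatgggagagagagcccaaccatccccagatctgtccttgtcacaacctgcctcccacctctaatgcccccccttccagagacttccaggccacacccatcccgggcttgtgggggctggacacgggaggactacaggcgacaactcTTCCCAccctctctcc
None of the 4 motifs occurs in these letters of Cspg4 or Notch3, and Tie1 has 1 RBPJ core, on the opposite strand, that begins 16 bases before the RefSeq start. Over all 32851 promoter windows, 16.1% held the receptor half-site, 21.6% the RBPJ core, 12% the ETS core and 1.47% a CArG box. Of the 24 windows of members, 3 held the half-site (Egfl7, Tal1 and Tek), 6 the RBPJ core (Egfl7, Erg, Kdr, Prox1, Tal1 and Tie1), 1 the ETS core (Kdr) and 0 a CArG box. These are letter matches only.

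Of 12 pan-endothelial genes, 0 passed by edgeR in any comparison. At an unadjusted p under 0.05, 5 were higher in PGR-A OE, beside 7.56% of all genes. Pecam1 was at 179, 170.2, 172 and 199.7 CPM in control, 200.05, 206, 187 and 205 in PGR-A OE and 185, 184, 191 and 188 in PGR-B OE, with all 3 groups overlapping (log2 change 0.15, SE 0.065, adjusted p = 0.311 in PGR-A OE, and 0.052 with a 95% interval of -0.09 to 0.19 in PGR-B OE). Cdh5 was at 128, 141, 143 and 174 CPM in control, 179.6, 179, 137 and 134 in PGR-A OE and 188, 125, 147 and 146 in PGR-B OE. Its log2 change was 0.11 (95% interval -0.21 to 0.42) in PGR-A OE and 0.05 (-0.26 to 0.36) in PGR-B OE, and 0.20 and 0.14 without control replicate 4. Vwf (chromosome 6, 125546774 to 125686679), which encodes the platelet-binding von Willebrand factor stored in endothelial granules, had the largest difference of this class. It was at 40.8, 34.6, 40.9 and 34.7 CPM in control, 62.2, 45.6, 48.9 and 77.7 in PGR-A OE and 54.95, 34.4, 50.3 and 51.1 in PGR-B OE. All PGR-A OE libraries lay above all controls (1.55-fold, log2 change 0.64, SE 0.17, adjusted p = 0.129), with the highest value in PGR-A OE replicate 4. In PGR-B OE, replicate 2 lay below all controls and the other 3 libraries above them (log2 change 0.34, SE 0.17, adjusted p = 0.583). DESeq2 called Vwf in PGR-A OE (adjusted p = 0.024), and in the edgeR fits without 1 library its adjusted p ran from 0.0873 to 0.338. Megakaryocytes and platelets also make von Willebrand factor, and the summed levels of 6 of their markers were 24.00 to 30.1 CPM in control, against 22.8 to 34.2 CPM in PGR-A OE, with Gp9 at most 0.147 CPM in any library and 0 of 4 tested markers past an unadjusted p of 0.05. The part of these cells in the Vwf difference was not tested.

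Eng (chromosome 2, 32646595 to 32682669) was at 153, 162, 171 and 169 CPM in control, against 218, 217, 179.8 and 174 CPM in PGR-A OE, where replicates 1 and 2 were well above the rest and the groups did not overlap (log2 change 0.27, SE 0.087, adjusted p = 0.184). In PGR-B OE it was at 177, 153, 159.8 and 166 CPM (0.004, 95% interval -0.19 to 0.19). The largest overlap of an Eng exon with an exon of the gene Fpgs is 61 bases, where reads may be split between the genes. Robo4, an endothelial guidance receptor that steadies the vessel barrier, was at 42.7 ± 9.29 CPM in control, 53.02 ± 7.43 in PGR-A OE and 45.2 ± 2.85 in PGR-B OE (SD, n = 4; log2 change 0.31 with adjusted p = 0.306 in PGR-A OE, and 0.47 without control replicate 4). Mmrn2, a matrix protein of the endothelial surface, was at 47.4, 55.1, 51.8 and 47.3 CPM in control, 55.1, 56.3, 55.4 and 59.4 in PGR-A OE and 49.6, 44.4, 48.7 and 47.2 in PGR-B OE, with the lowest mean in the last group (log2 change 0.17, SE 0.066, adjusted p = 0.266 in PGR-A OE). The junction genes Esam and Cldn5, the sialomucin gene Emcn, Egfl7, Plvap and the phosphatase gene Ptprb had log2 changes from -0.002 (Ptprb) to 0.25 (Esam) in PGR-A OE and from -0.18 (Cldn5) to 0.20 (Esam) in PGR-B OE, all overlapping control.

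**Figure D4:**
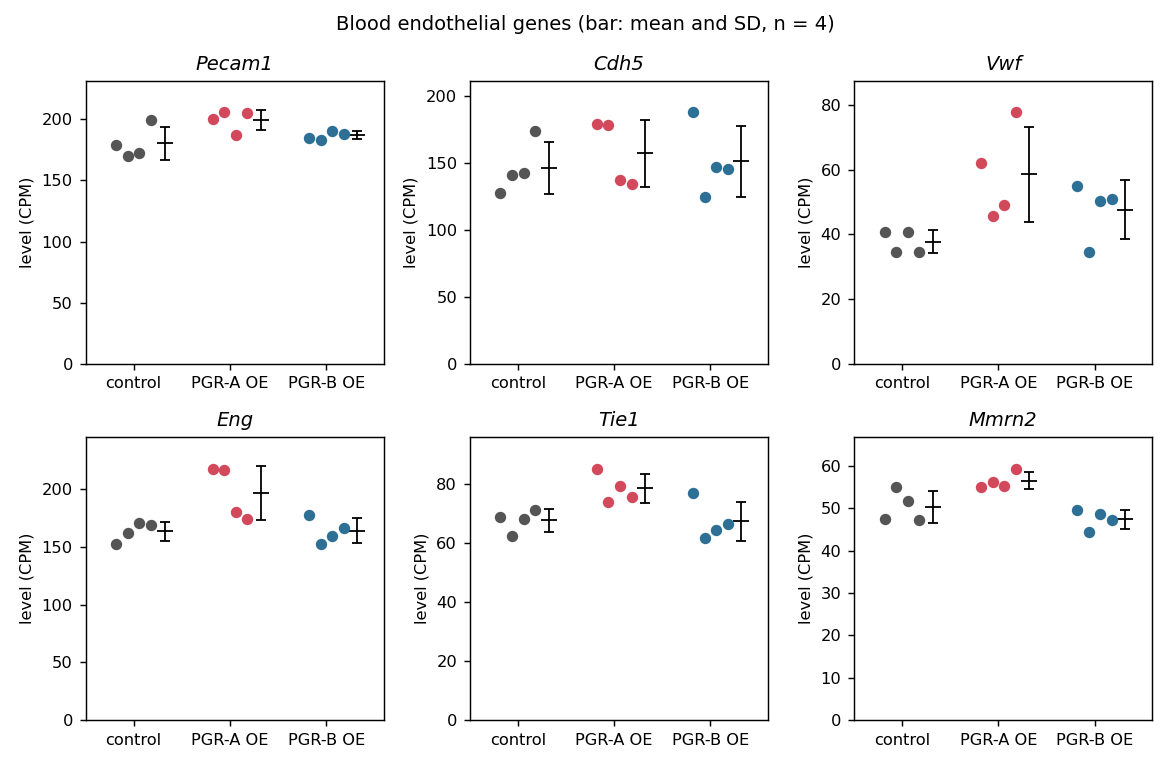
Level in CPM of the blood endothelial genes Pecam1, Cdh5, Vwf, Eng, Tie1 and Mmrn2 in each library, with 1 point per library, and the mean with its SD (n = 4) as a bar beside each group. The PGR-A OE points lie above all control points for Vwf, Eng and Tie1, and the 3 groups overlap for Pecam1 and Cdh5.

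No receptor or ligand gene of vessel growth passed against control by edgeR. Tie1, the partner receptor of TIE2, was at 68.9, 62.5, 68.3 and 71.5 CPM in control, 85.4, 74.2, 79.5 and 75.6 in PGR-A OE and 77.02, 61.97, 64.5 and 66.6 in PGR-B OE. PGR-A OE lay above the controls in all 4 libraries (log2 change 0.21, SE 0.079, adjusted p = 0.231), and PGR-B OE did not (-0.0057, 95% interval -0.18 to 0.17). Tek was at 26.5, 26.2, 27.2 and 23.5 CPM in control, 28.8, 25.8, 27.5 and 37.6 in PGR-A OE, where replicate 4 was highest, and 30.2, 24.2, 25.01 and 27.8 in PGR-B OE (log2 change 0.21, SE 0.12, adjusted p = 0.403 in PGR-A OE, and log2 change 0.052, SE 0.12, adjusted p = 0.93 in PGR-B OE). Without PGR-A OE replicate 4 the log2 change of Tek in PGR-A OE was 0.081. Its ligands varied widely between libraries. Angpt1 was at 2.63 ± 0.600 CPM in control, 3.39 ± 1.05 in PGR-A OE and 3.47 ± 0.789 in PGR-B OE (95% intervals of the log2 change -0.18 to 0.92 and -0.15 to 0.95). Angpt2, a context-dependent antagonist of TIE2 that loosens vessels for remodelling, was at 10.1 ± 5.44, 10.5 ± 2.27 and 10.8 ± 1.22 CPM in the same order (95% intervals -0.56 to 0.68 and -0.53 to 0.71), with its highest value in control replicate 4, the library with the most Prl8a2. Without that library the log2 changes of Angpt2 were 0.50 in PGR-A OE and 0.53 in PGR-B OE, against 0.061 and 0.089 with it. The part of decidual tissue in the Angpt2 levels was not tested. The change of Angpt1 in PGR-A OE was 0.37, and 0.18 without PGR-A OE replicate 4. Angpt1 shares exon sequence with the gene model Gm17473. Kdr, the main VEGF receptor of blood endothelium, was at 81.98, 84.7, 68.9 and 100.5 CPM in control, 97.4, 104, 80.7 and 96.3 in PGR-A OE and 81.9, 64.7, 103 and 87.7 in PGR-B OE. Its groups overlapped, with log2 changes of 0.17 (95% interval -0.14 to 0.48) and 0.0041 (95% interval -0.30 to 0.31), and of 0.27 and 0.10 without control replicate 4. Flt1, which binds VEGF and limits its action, had a log2 change of 0.10 in PGR-A OE and 0.097 in PGR-B OE.

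Of 6 endothelial transcription factors 0 passed by edgeR, DESeq2 or limma voom, with 0 of 6 at an unadjusted p under 0.05 in either comparison with control. The ETS factors Erg and Fli1, which keep the endothelial programme, had log2 changes of 0.13 and 0.041 in PGR-A OE and -0.072 and -0.082 in PGR-B OE. Of the SOXF factors, Sox18 was at 36.5 ± 4.12, 37.9 ± 3.59 and 34.2 ± 5.59 CPM, in the order control, PGR-A OE, PGR-B OE. Sox17, the arterial member, was at 20.5 ± 1.34, 23.5 ± 2.43 and 25.8 ± 7.84 CPM in that order, with 36.4 CPM in PGR-B OE replicate 1 alone. Sox7 was at 22.7 ± 5.56, 19.6 ± 4.13 and 22.7 ± 4.85 CPM and Tal1 at 5.91 ± 0.351, 6.84 ± 1.01 and 6.25 ± 0.837 CPM in the same order. The largest overlap of a Sox17 exon with an exon of the gene model Gm37587 is 804 bases.

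Of the 3 endothelial Notch genes 0 passed by edgeR, DESeq2 or limma voom. At an unadjusted p under 0.05, 2 were higher in PGR-A OE, beside 7.56% of all genes. Notch4, the endothelial receptor, was at 28.3, 28.5, 25.8 and 33.4 CPM in control, 37.5, 40.7, 35.4 and 33.3 in PGR-A OE and 38.5, 27.8, 37.5 and 33.7 in PGR-B OE. Its log2 change was 0.34 (SE 0.11, adjusted p = 0.186) and 0.24 (SE 0.11, adjusted p = 0.536), and 1 PGR-A OE library lay within the control range. Dll4, the ligand of arterial and tip cells, was at 18.2, 15.5, 16.04 and 20.7 CPM in control, against 23.1, 24.8, 21.4 and 17.1 CPM in PGR-A OE, with replicate 4 inside the control range (log2 change 0.30, SE 0.12, adjusted p = 0.276), and at 18.9 ± 1.10 CPM in PGR-B OE. Notch1 was at 46.6 ± 1.61, 52.01 ± 5.93 and 42.3 ± 8.91 CPM in the order control, PGR-A OE, PGR-B OE. Dll4 and Notch1 exons overlap noncoding gene models. Vcam1, the leukocyte adhesion molecule of activated endothelium and of some stromal cells, was at 5.74, 6.90, 9.09 and 8.96 CPM in control, 10.6, 11.3, 12.3 and 10.1 in PGR-A OE and 8.55, 13.2, 8.06 and 10.99 in PGR-B OE. It lay above control in all 4 PGR-A OE libraries (log2 change 0.53, SE 0.18, adjusted p = 0.204) and in 2 of 4 PGR-B OE libraries (log2 change 0.41, SE 0.18, adjusted p = 0.517).

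The lymphatic genes Prox1, Lyve1 and Flt4 had their lowest means in PGR-B OE, and none passed by edgeR. Prox1 (chromosome 1, 190118035 to 190170714), the master regulator of lymphatic identity, was at 12.1, 10.5, 14.02 and 7.47 CPM in control, 7.89, 9.71, 8.80 and 9.02 in PGR-A OE and 5.19, 6.83, 7.15 and 7.50 in PGR-B OE. All PGR-B OE libraries were below control replicates 1 to 3, and control replicate 4, at 7.47 CPM, fell among them. The log2 change in PGR-B OE was -0.73 (SE 0.18, 0.604 of the control level, adjusted p = 0.16 by edgeR) and did not pass. DESeq2 called it (adjusted p = 0.0175), as did edgeR without control replicate 4 (adjusted p = 0.0319) and without control replicate 4 and PGR-A OE replicate 4 together (adjusted p = 0.0288). The largest overlap of a Prox1 exon with an exon of the gene Prox1os is 133 bases.

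Lyve1 (chromosome 7, 110850607 to 110863239) was at 96.1, 145, 125 and 102 CPM in control, 102, 84.4, 100.2 and 87.9 in PGR-A OE and 70.9, 86.6, 92.4 and 85.8 in PGR-B OE. PGR-B OE lay below all controls (log2 change -0.48, SE 0.13, adjusted p = 0.229), and PGR-A OE overlapped them (log2 change -0.32, SE 0.13, adjusted p = 0.269). Macrophages also carry Lyve1, and the summed macrophage markers overlapped between control (799.7 to 957 CPM), PGR-A OE (776 to 977 CPM) and PGR-B OE (677 to 1043 CPM), with 0 of 7 at an unadjusted p under 0.05 in either comparison. Of the 7, 4 had a positive log2 change in PGR-A OE and 0 in PGR-B OE (median -0.060). The part of macrophages in the Lyve1 difference was not tested. Flt4 (chromosome 11, 49609263 to 49652739), the VEGF-C receptor of lymphatic endothelium, was at 68.2, 63.02, 77.3 and 59.3 CPM in control, 68.97, 64.3, 75.1 and 68.1 in PGR-A OE and 45.8, 51.3, 61.9 and 50.6 in PGR-B OE. Here PGR-A OE lay within the control range (0.046, 95% interval -0.18 to 0.27), and 3 of 4 PGR-B OE libraries were below every control (log2 change -0.35, SE 0.10, adjusted p = 0.274). These 3 genes had the lowest changes of all 35 members in PGR-B OE, where 4.59% of all genes were lower at an unadjusted p under 0.05.

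Further lymphatic genes were read beside them. Of 5 genes listed, Ccl21a was listed at 0 in all libraries and 4 were tested, with 0 called in any comparison by edgeR. At an unadjusted p under 0.05, 0 were higher and 2 lower in PGR-B OE, beside 4.69% and 4.59% of all genes. The median log2 change there was -0.39. Itga9 (0.23) and Pdpn (-0.37) had the lowest p in PGR-A OE. Their log2 changes in PGR-B OE were -0.13 and -0.11, neither at that p. Mmrn1, a multimerin of lymphatic endothelium and platelets, was at 73.02, 68.6, 82.05 and 51.9 CPM in control, 60.8, 61.99, 64.8 and 62.04 in PGR-A OE and 37.1, 46.4, 48.7 and 43.2 in PGR-B OE. Every PGR-B OE library lay below every other library (log2 change -0.65, SE 0.12, adjusted p = 0.0528 by edgeR), and DESeq2 called it lower, as did edgeR in 2 of 12 fits without 1 library, those without control replicate 4 (adjusted p = 0.00537) and without PGR-A OE replicate 4 (adjusted p = 0.0463). Reln was at 21.5 ± 5.95 CPM in control, 18.5 ± 3.64 in PGR-A OE and 13.2 ± 2.50 in PGR-B OE, with control replicate 4 again low, at 13.01 CPM (log2 change -0.70, SE 0.22, adjusted p = 0.322). Nrp2, a co-receptor for VEGF-C that works with FLT4, was at 65.2, 77.5, 80.1 and 70.1 CPM in control, 101, 91.3, 94.3 and 115 in PGR-A OE and 50.8, 56.96, 60.5 and 75.2 in PGR-B OE. It was the single gene of the related lists to pass between the isoforms by edgeR, lower in PGR-B OE than in PGR-A OE (log2 change -0.72, SE 0.12, adjusted p = 0.0429). The call was kept in 1 of 12 fits without 1 library (adjusted p 0.0113 to 0.141). It was lost in the fit of the 8 libraries compared (adjusted p = 0.154) and with the replicate number as a block (adjusted p = 0.0616). Limma voom (adjusted p = 0.0387) and DESeq2 (adjusted p = 2.87e-05) also called Nrp2 lower. Smooth muscle and stromal cells make Nrp2 as well, and smooth muscle markers were lower in PGR-B OE than in PGR-A OE (0 of 9 positive, median -0.41); their part in this result was not tested.

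**Figure D5:**
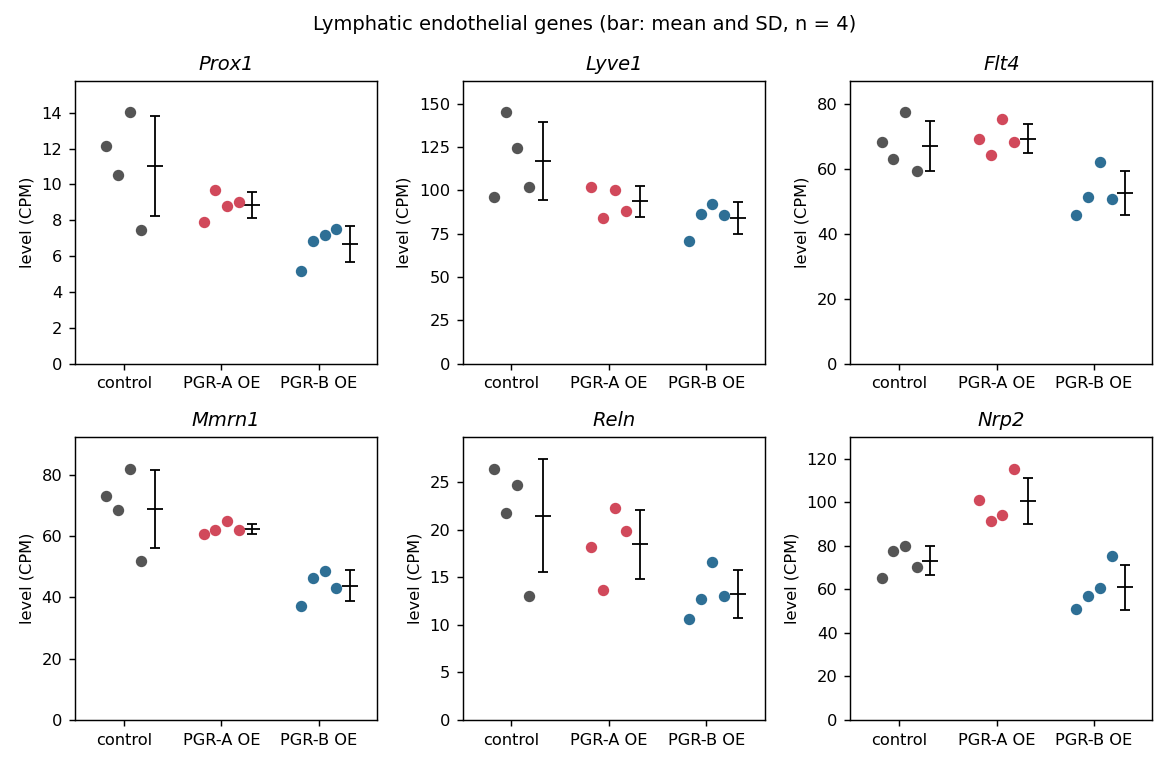
Level in CPM of the lymphatic genes Prox1, Lyve1 and Flt4 and of the related genes Mmrn1, Reln and Nrp2 in each library, with 1 point per library, and the mean with its SD (n = 4) as a bar beside each group. PGR-B OE has the lowest mean in all 6 panels, its points lie below all control points for Lyve1 and Mmrn1, and control replicate 4 is the lowest control point for Prox1, Flt4, Mmrn1 and Reln. Pdpn and Itga9, also tested as lymphatic genes, are not shown.

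Between the isoforms, 0 of 35 members passed by edgeR, where 0.116% of all genes were called, 0.0578% in either direction alone. At an unadjusted p under 0.05, 10 members were lower and 0 higher in PGR-B OE than in PGR-A OE, beside 4.76% of all genes lower and 3.28% higher. DESeq2 called 1 member, Cspg4, lower in PGR-B OE (0.813% of all genes by that tool), and limma voom called 0 (0.135% of all genes). The median member change was -0.16, and 4 of 35 were positive. The smooth muscle markers were also at lower levels in PGR-B OE, with 0 of 9 positive, 7 lower at that p, 4 lower without overlap, 0 called by edgeR and Des and Synm called lower by DESeq2; their part in the result was not tested. Without overlap, PGR-B OE lay below PGR-A OE for Cspg4 (log2 change -0.33, SE 0.085, adjusted p = 0.268), Foxs1 (log2 change -0.45, SE 0.12, adjusted p = 0.32), Flt4 (log2 change -0.40, SE 0.10, adjusted p = 0.268), Mmrn2 (log2 change -0.25, SE 0.066, adjusted p = 0.287) and Prox1 (log2 change -0.41, SE 0.18, adjusted p = 0.604). These are 5 of 35 members, with 0 higher, where 2.35% of all genes were lower and 1.5% higher without overlap. The remaining members at that p were Eng (-0.26), Tie1 (-0.22), Cldn5 (-0.39), Notch1 (-0.30) and Notch3 (-0.25). For Vwf the difference was -0.30 (95% interval -0.67 to 0.08), for Pdgfrb -0.17 (-0.36 to 0.015), for Pecam1 -0.094 (-0.24 to 0.047), for Cdh5 -0.056 (-0.37 to 0.26), for Kdr -0.17 (-0.48 to 0.14), for Tek -0.16 (-0.41 to 0.091) and for Vcam1 -0.12 (-0.51 to 0.27). Without PGR-A OE replicate 4 it was -0.13 for Vwf and -0.03 for Tek. Angpt1 and Angpt2 differed by 0.03 (-0.51 to 0.57) and 0.028 (-0.59 to 0.65).

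Other genes of these pathways gave few calls. Of 7 VEGF ligands and co-receptors, 0 passed against control in either group by edgeR, and DESeq2 called Nrp2 higher in PGR-A OE. At an unadjusted p under 0.05, 2 were higher and 1 lower (Vegfa, -0.20) in PGR-A OE. In PGR-B OE, 1 was higher and 1 lower (Nrp2, -0.27). Over all genes, 7.56% were higher and 7.87% lower at that p in PGR-A OE, with 4.69% and 4.59% in PGR-B OE. Vegfc, the FLT4 ligand, was at 2.55, 3.43, 2.68 and 3.84 CPM in control, 5.33, 5.56, 4.21 and 4.08 in PGR-A OE and 5.72, 5.81, 3.38 and 3.61 in PGR-B OE (log2 change 0.62, SE 0.22, adjusted p = 0.214 in PGR-A OE, and log2 change 0.57, SE 0.22, adjusted p = 0.455 in PGR-B OE). Of 10 further Notch pathway genes 0 passed by edgeR or limma voom, with 1 at an unadjusted p under 0.05 in PGR-A OE (Jag2, 0.54, also called by DESeq2, and next Dll1, 0.43) and 0 in PGR-B OE (lowest p Hes1, -0.21, and Nrarp, -0.13). Among 7 tested genes around endoglin and BMP signalling 0 passed by edgeR. At that p, 3 were higher and 1 lower (Bmpr2, -0.24) in PGR-A OE, and 2 higher and 1 lower in PGR-B OE. Id3, a BMP target that restrains differentiation factors, was at 19.1, 13.7, 18.5 and 19.2 CPM in control, 34.9, 28.2, 27.6 and 28.9 in PGR-A OE and 36.1, 29.5, 20.2 and 27.8 in PGR-B OE (log2 change 0.76, SE 0.16, adjusted p = 0.063 in PGR-A OE, and log2 change 0.69, SE 0.16, adjusted p = 0.148 in PGR-B OE), above all controls in both groups and called in both by DESeq2, which also called Id1 (0.52) and Acvrl1 in PGR-A OE. Bmpr2 was next in PGR-B OE (-0.25). Of 28 further endothelial genes 0 passed by edgeR (7 and 1 higher at that p, 0 lower), and DESeq2 called Clec14a and Sema3g higher in PGR-A OE (0.29 and 0.34). Sema3g (0.27) and Thbd (0.30) had the lowest p in PGR-B OE. Of 14 further endothelial transcription factors 0 passed against control by edgeR, DESeq2 or limma voom. At that p, 1 was higher and 2 lower in PGR-A OE, and 0 higher and 2 lower in PGR-B OE. The lowest p values belonged to Ets2 (-0.42) and Ets1 (0.24) in PGR-A OE and to Elk3 (-0.22) and Foxc2 (-0.78) in PGR-B OE.

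Of 14 other mural genes, 0 passed by edgeR or limma voom in either comparison with control. At an unadjusted p under 0.05, 2 were higher in PGR-A OE and 0 in PGR-B OE, beside 7.56% and 4.69% of all genes. The median log2 change was 0.22 in PGR-A OE and -0.014 in PGR-B OE. Rgs5, a widely used pericyte marker, was at 346 ± 41.4 CPM in control, 338 ± 36.4 in PGR-A OE and 382 ± 62.6 in PGR-B OE (log2 changes -0.035 and 0.14). The pericyte potassium channel genes Kcnj8 (0.24 and -0.043) and Abcc9 (-0.16 and -0.19) did not pass either. Tbx2, a T-box factor, was at 11.03, 12.1, 13.2 and 12.8 CPM in control, against 19.5, 16.9, 17.9 and 23.8 CPM in PGR-A OE (log2 change 0.67, SE 0.17, adjusted p = 0.113) and was called there by DESeq2, with Ednra next (0.32). In PGR-B OE the lowest p belonged to Cox4i2 (0.54) and Abcc9. Pdgfb, the endothelial ligand of PDGFRB, was at 25.1 ± 4.98, 28.8 ± 2.38 and 26.9 ± 2.52 CPM, in the order control, PGR-A OE, PGR-B OE. Rgs5, Kcnj8 and Pdgfb were named after their values were seen.

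Between the isoforms, edgeR called 0 genes of these lists besides Nrp2, and DESeq2 called Nrp2, Elk3 (-0.26) and Mmrn1 (-0.51), all lower in PGR-B OE. At an unadjusted p under 0.05, 2 of 7 VEGF genes, 3 of 10 Notch pathway genes, 0 of 7 endoglin and BMP genes, 5 of 28 endothelial genes, 2 of 14 transcription factors, 3 of 4 lymphatic genes and 2 of 14 mural genes were lower, and none was higher. Over all genes, 4.76% were lower and 3.28% higher at that p. Besides those named, the lowest p of each list belonged to Vegfd (-0.43), Nrarp (-0.36) and Jag2 (-0.40), Acvrl1 (-0.17) and Id1 (-0.17), Icam2 (-0.38) and Ece1 (-0.27), Foxc2 (-0.69), Itga9 (-0.37), and Ednra (-0.38) and Tbx2 (-0.41).

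Covariation of the members between libraries was read against Cdh5. Across the 12 libraries, Pearson's r of log2 CPM with Cdh5 had a median of 0.362 over the 34 other members, beside -0.00653 over all genes. Sox18 was closest (r = 0.794, permutation p = 0.00189, rho = 0.692, permutation p = 0.0154), followed by Esam (0.72), Eng (0.709), Notch4 (0.706) and Robo4 (0.697). Plvap (-0.508), Prox1 (-0.421) and Sox7 (-0.372) ran against Cdh5. After adjustment over 15560 genes none of these passed by Pearson or Spearman, nor did any gene (Sox18 adjusted p = 0.4). Without PGR-B OE replicate 1 and PGR-A OE replicate 1, the libraries farthest from the Cdh5 median, r was 0.701 for Sox18, 0.696 for Eng and -0.278 for Plvap, and on values centred within groups it was 0.84, 0.889 and -0.596. The 5 genes outside the members with the highest r were Riox1 (0.948), Rftn1 (0.908), Rcc2 (0.906), Vasn (0.904) and Fanca (0.901), with adjusted p from 0.368 to 0.4.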

How the data were processed

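The authors' deposited file gives unnormalized whole-number counts for every gene in each of 12 libraries, beside a gene length in bases. The submitters' processing notes name STAR 2.7.0f, Bowtie2 2.2.5, Subread 1.6.4 with featureCounts, DESeq2, GRCm38 and mm10. What each tool did, the annotation, strand use and the handling of multi-mapping reads were not given in the sources used here. Libraries were grouped by title.

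Tests used edgeR 4.0.16 under R 4.3.3. The filter filterByExpr left 15561 genes, TMM scaled the libraries, and 1 robust quasi-likelihood fit of all 12 libraries was tested for 3 comparisons, with Benjamini-Hochberg adjustment over all genes tested and a threshold of 0.05. The fit was also run on simulated data, and the outcome of that run is not given here. CPM uses the TMM-scaled totals, and log2 CPM a prior count of 2. Intervals of log2 changes are 95% intervals from the fitted SE. DESeq2 1.42.0, limma 3.58.1 (voom), other scaling, no filter, a replicate block, the 8 libraries compared and each library left out were alternatives. Correlations used 100000 permutations. No libraries of a group were duplicates (chi-square per gene 20.8 or more in 18 pairs).

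The members, lists and rules were chosen with earlier results of these data known. Members at an unadjusted p under 0.05, and Pecam1, Cdh5, Vwf, Angpt1, Angpt2, Tek, Kdr, Pdgfrb, Notch3 and Vcam1 in every comparison, were named with a test. Positions come from GENCODE M21 (GRCm38) by symbol; 9 of 35 members share exon bases with another gene model. In the added lists, genes past the threshold or with the lowest p were named.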

Additional observations from a re-analysis of the deposited data

Results flagged for a closer look

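Within a group, 5 of 105 sets of 4 libraries (35 members in 3 groups) had a library far from the other 3, by a gap to the nearest library above the 95% critical share of the range in Dixon's test. Chance flags about 1 in 20 such sets, which is close to this share. Flt1 was highest in PGR-B OE replicate 3, at 66.7 CPM against 54.1 to 55.3 CPM in the other libraries of that group. Plvap was lowest in control replicate 4, at 181 CPM against 207 to 212 CPM in the other libraries of that group. Angpt2 was highest in PGR-B OE replicate 1, at 12.6 CPM against 9.91 to 10.3 CPM in the other libraries of that group. Notch1 was highest in PGR-A OE replicate 4, at 60.9 CPM against 48.4 to 49.7 CPM in the other libraries of that group. Pdgfrb was lowest in PGR-B OE replicate 2, at 106 CPM against 122 CPM in the other libraries of that group. Each of these 5 values came from a different library. None of these genes was called in a comparison by edgeR.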

How the results depend on the processing

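Under DESeq2, 564 genes and 5 members were called in PGR-A OE against control (102 and 2 by edgeR), 221 and 2 in PGR-B OE (48 and 1), and 126 and 1 between the isoforms (18 and 0). In a fit of the 8 libraries compared, 63 genes and 1 member were called in PGR-A OE, 0 members in PGR-B OE, and 10 genes between the isoforms. Limma voom called 0 members in PGR-B OE. With the replicate number as a block, 1 member was called in PGR-A OE and 0 in PGR-B OE, with 11 genes between the isoforms; Cspg4 (adjusted p = 0.0662) and, in PGR-B OE, Foxs1 (adjusted p = 0.124) did not pass. Same-numbered libraries did not deviate together (correlations -0.257 to 0.19, over 0.1 in 1 of 12 pairs), beside -0.359 to 0.351 for pairs with different numbers. These correlations cannot settle if equal numbers share a litter or batch, and the labels do not say. With control replicate 4 and PGR-A OE replicate 4 both omitted, 1 member was called in PGR-A OE, 2 members and 91 genes in PGR-B OE, and 38 genes between the isoforms. With 1 library left out, the genes called ran from 32 to 109 in PGR-A OE, 22 to 100 in PGR-B OE and 11 to 31 between the isoforms, and the members called from 1 to 2, 0 to 1 and 0 to 0. The gene count moved by over 1.5 times without control replicate 1 or 2 or PGR-A OE replicate 1 or 2 in PGR-A OE, without control replicate 1 or 2, PGR-B OE replicate 4 or PGR-A OE replicate 4 in PGR-B OE, and without PGR-A OE replicate 1, 2 or 4 or PGR-B OE replicate 1 between the isoforms. The causes were not tested. With 1 library left out, the median member change ran from 0.16 to 0.21 in PGR-A OE, from 0.014 to 0.101 in PGR-B OE (reported as 0.05) and from -0.20 to -0.12 between the isoforms. Over all alternatives, 30 to 32, 19 to 24 and 2 to 6 of 35 members were positive. Of 1007 alternative values of members named with a test, 981 kept their side of the threshold, 19 lost a call (7 for Cspg4 in PGR-A OE and 12 for Foxs1 in PGR-B OE), 7 gained one and 0 called values reversed. RLE scaling and no filter on low counts changed no member call. Of 53 member results, 8 changed sign in some setting, none of them called by edgeR. Members had at least 61 counts in every library. The labels give no batch.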
